A study of Mus musculus with 8 samples.

Results

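Complement is a cascade of serum and membrane proteins that marks targets for removal and for lysis. In its classical pathway the C1q recognition unit activates the proteases C1r and C1s, and C1s cleaves C4 and C2 to form an enzyme that cleaves C3, the component on which all complement pathways converge. In the alternative pathway factor B binds cleaved C3 to form another C3-cleaving enzyme, and host cells are protected by inhibitors in serum and on the plasma membrane. The liver makes most circulating complement, and epithelial and tumour cells also transcribe parts of the cascade. The 9 complement genes described here were C1ra and C1s1 (proteases), C4b, C3 and Cfb (the parts from which C3-cleaving enzymes are made), and Serping1, Cd55, Cd59a and Clu (inhibitors). They were taken by gene symbol from the table of 34478 genes, and each of the 9 had a row in it.

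RNA-seq was done on 4 primary cell lines, #1, #3, #5 and #10, grown from pancreatic ductal adenocarcinoma (PDAC) of mice of the genotype Ptf1awt/Cre;Kraswt/LSL-G12D;Trp53loxP/loxP. This genotype was shared by both groups, and its Cre recombinase is driven from the pancreatic Ptf1a locus. Each line had 1 library with DMSO, the vehicle, and 1 library after 48 h of trametinib, an inhibitor of the MEK kinases, at the IC50 of that line, so that doses may differ between lines, and a difference between lines in trametinib values or in the change cannot be told apart from a difference in dose. No line and treatment was repeated, so spread within a line was not measured. Limma SEs and p-values below for trametinib use the spread of the change between these 4 lines, after line levels are removed. Limma draws that spread toward a trend over all genes tested, so an SE can be smaller than the 4 lines alone would give. The F test of line differences uses the same spread. Values are normalized counts, in which reads per gene are scaled between libraries.

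Libraries held 33385299 to 36385719 normalized counts with DMSO and 30680091 to 33063309 with trametinib, so totals of the groups did not overlap. A floor of 3 reads corresponded to 2.33 to 3.72 normalized counts. The MEK-ERK target gene Dusp6 fell by 2.51 on the log2 scale (SE 0.14, limma adjusted p = 0.00012) and Etv4 fell by 5.92 (SE 0.39, adjusted p = 0.0002), each in 4 of 4 lines. Epithelial markers were high in all libraries, with a summed level of 220959 to 347703 for the 8 genes with DMSO and 113439 to 221939 with trametinib, while Epcam was listed at 0 in 6 of 8 libraries. Of the other cell type markers measured alongside complement, summed levels of 10 fibroblast genes were 96.9 to 369 with DMSO and 440.0 to 1260 with trametinib, and Lum was listed at 0 in all 8 libraries. Those of 6 hepatocyte genes were 32.9 to 147 and 114 to 782, with Ahsg listed at 0 in all 8. Those of the 6 macrophage genes measured, of 10 listed, were 1122 to 2668 and 1339 to 3807, with Lyz2 at no more than 1.91. Cd14 supplied most of each macrophage sum, at 907 to 3571 over the 8 libraries. Cd68 stood at 130 to 228, Itgam at 3.83 to 27.5 and Ptprc at 4.05 to 17.2. Of the markers that could be tested, 1 of 5 fibroblast genes (Col1a1), 2 of 4 hepatocyte genes (Alb and Ttr) and 1 of 5 macrophage genes (Csf1r) rose and 0 fell, in the same direction as C3, C1ra and C1s1. Of the 7 epithelial genes tested, 5 fell (Krt8, Krt18, Krt19, Krt7 and Cldn7), 1 rose (Cldn4) and Cdh1 did not pass. Among all genes tested in the same fit, 27.3% rose and 25.6% fell. Alb passed the filter on low values (a mean of at least 10) only through its trametinib values, with a DMSO mean of 5.07. The part of these markers in the results was not tested.

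The promoters of the genes with the firmest changes, C3, C1ra and C1s1, are shown because these genes rose together. RefSeq promoter windows of the mouse build GRCm38.p6, from 250 bases before to 50 bases after the start site, matched 5 of the 9 genes (C3, C1ra, C1s1, Cd55 and Cd59a). Both strands were searched for the letters TTGCNNAA (a C/EBP motif), TTCNNNGAA (STAT), GAAANNGAA (a core of the interferon response element) and TGANTCA (AP-1), and for the kappaB motif. Sequences are written 5′ to 3′ on the strand of the gene, with matches in capitals, and no match overlapped another.
C3, chr17:57228087-57228386, minus strand: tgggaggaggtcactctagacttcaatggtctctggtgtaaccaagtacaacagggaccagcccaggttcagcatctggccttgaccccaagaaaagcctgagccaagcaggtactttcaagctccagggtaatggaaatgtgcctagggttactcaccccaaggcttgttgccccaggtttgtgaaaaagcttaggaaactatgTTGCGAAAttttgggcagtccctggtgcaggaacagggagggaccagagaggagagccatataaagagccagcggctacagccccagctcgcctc
C1ra, chr6:124512371-124512670, plus strand: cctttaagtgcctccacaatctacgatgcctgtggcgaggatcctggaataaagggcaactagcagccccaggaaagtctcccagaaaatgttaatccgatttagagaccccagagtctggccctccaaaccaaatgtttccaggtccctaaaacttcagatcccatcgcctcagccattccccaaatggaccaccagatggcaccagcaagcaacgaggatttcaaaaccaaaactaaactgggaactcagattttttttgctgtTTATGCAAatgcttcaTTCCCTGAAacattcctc
C1s1, chr6:124542310-124542609, minus strand: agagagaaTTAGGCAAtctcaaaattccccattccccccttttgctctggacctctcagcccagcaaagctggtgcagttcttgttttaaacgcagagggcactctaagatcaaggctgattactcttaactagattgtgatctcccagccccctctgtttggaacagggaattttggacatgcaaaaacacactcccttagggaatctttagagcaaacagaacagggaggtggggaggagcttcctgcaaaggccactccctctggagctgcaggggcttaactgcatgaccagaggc

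The C3 window held a C/EBP match, TTGCGAAA, whose leftmost base lay at -45 from the start site. In C1ra a C/EBP match, TTATGCAA, and a STAT match, TTCCCTGAA, began 17 and 33 bases after the RefSeq start. The C1ra window, chr6:124512371-124512670, lies almost wholly inside the GENCODE M21 gene model. That model begins at 124512405, before the RefSeq start, so these positions hold for the RefSeq start only. C1s1 had a C/EBP match, TTAGGCAA, at -242, and none of the letters in the window of its other RefSeq start. Cd59a held an interferon response core, GAAAGGGAA, at -187, and Cd55 held none of these motifs. Across 32851 mouse promoter windows of this length, 10.8% held the C/EBP letters, 8.30% the STAT letters, 8.56% the interferon response core, 7.81% the AP-1 letters and 4.51% the kappaB motif. These matches describe letters in the windows and are not measured binding.

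Among the 7 complement genes that passed the filter on low values (a mean of at least 10), 5 rose with trametinib, 0 fell and 2 did not pass the test (limma on log2(value + 1) with the line as a block, adjusted p under 0.05 over 15888 genes). Among all genes tested 27.3% rose and 25.6% fell. The genes that rose were C1ra, C1s1, C3, Cd55 and Cd59a, and those that did not pass were Cfb and Clu. The median log2 fold change was 2.67 for the 7 genes and 0.072 for all genes tested. C4b and Serping1 were below the filter and are not part of these counts.

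**Figure D1:**
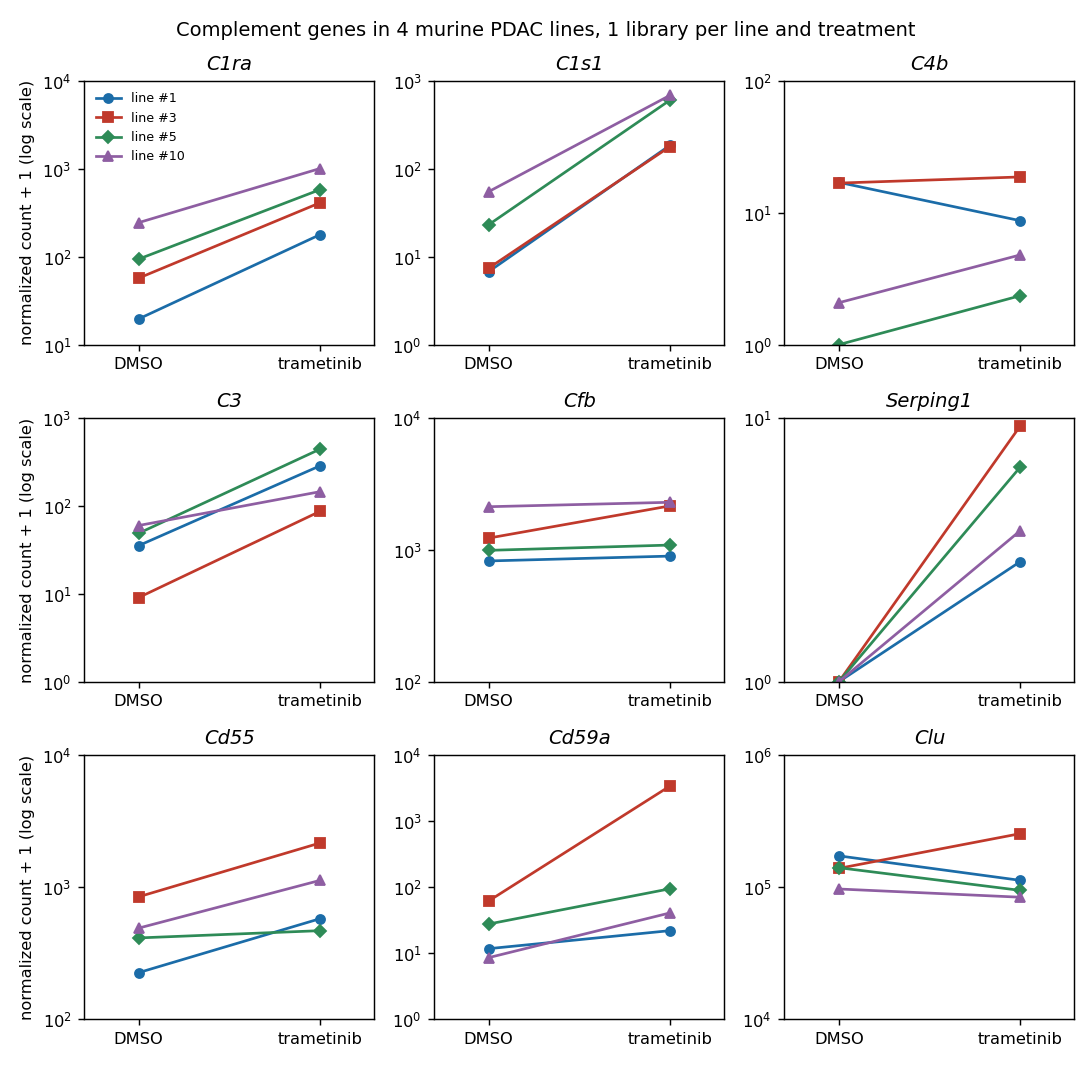
Normalized count + 1 (log axis, own range in each panel) of the 9 complement genes with DMSO and with trametinib; each line joins the 2 libraries of 1 cell line, and there is 1 library per point. C1ra, C1s1 and C3 rise in all 4 lines, Cd59a reaches 3417 in line #3, and Clu rises in line #3 while it is lower in the other lines.

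C1ra, the protease zymogen that starts the classical cascade by activating C1s, rose in every line. With DMSO its normalized counts were 18.6 in line #1, 56.1 in line #3, 93.1 in line #5 and 244 in line #10. With trametinib they were 177, 410.0, 579 and 1008 in the same order. The lines kept their order under both treatments. Although every pair rose, the groups overlapped, with DMSO line #10 (244) above trametinib-treated line #1 (177). Means were 103 ± 98.6 (SD, n = 4) and 544 ± 351, and the log2 fold change was 2.67 (SE 0.22, 95% CI 2.16 to 3.19, limma adjusted p = 0.00033).

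C1s1, which encodes the C1s protease that cleaves C4 and C2, had the largest change of the 7 tested complement genes. Its DMSO values were 5.78, 6.43, 22.2 and 54.2 in lines #1, #3, #5 and #10, or about 7, 6, 18 and 56 reads. Trametinib values were 185, 179, 605 and 686, all above the DMSO values. The log2 fold change was 4.43 (SE 0.26, 95% CI 3.81 to 5.05, limma adjusted p = 0.00015), or 21.5-fold on the log2(value + 1) scale, from a mean of 22.1 ± 22.7 (SD, n = 4) to 414 ± 270.04. Because both lowest DMSO values rest on few reads, the size of the change is less certain in lines #1 and #3 than in the others.

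C1ra and C1s1 lie side by side on chromosome 6 (GRCm38, GENCODE M21), C1ra at chr6:124512405-124523443 on the plus strand and C1s1 at chr6:124530345-124542359 on the minus strand. C1s1 rose more than C1ra in each line, by 1.59, 1.75, 2.08 and 1.59 on the log2 scale in lines #1, #3, #5 and #10. The mean of this difference was 1.75 ± 0.23 (SD, n = 4), with a two-sided exact sign-flip permutation p of 0.13, the smallest that 4 lines allow. Per kb of exon, the level of C1ra was 3.38, 9.16, 4.40 and 4.72 times that of C1s1 with DMSO, and 1.01, 2.41, 1.01 and 1.54 times with trametinib. The levels of both proteases were therefore near equal in trametinib-treated lines #1 and #5 and unequal in all 4 lines with DMSO.

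**Figure D2:**
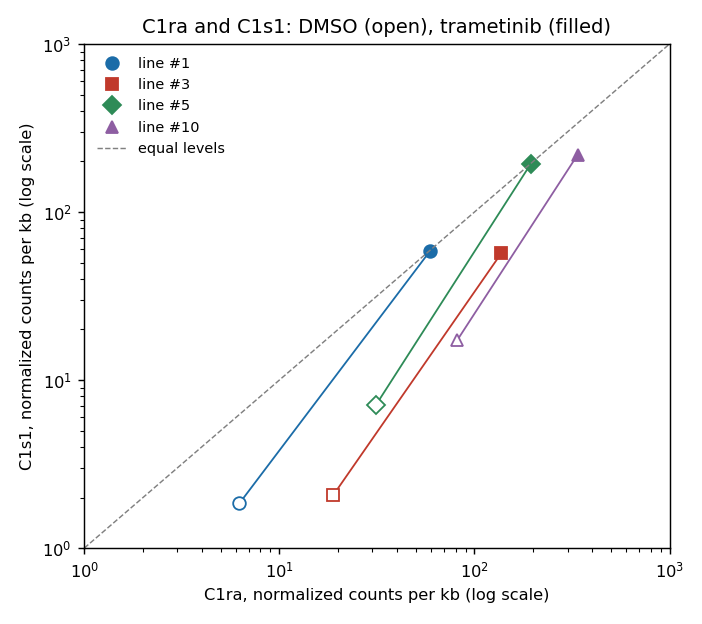
Level of C1s1 against that of C1ra in normalized counts per kb of exon (both axes log); open symbols are DMSO and filled symbols trametinib, joined for each of the 4 cell lines, and the dashed line marks equal levels. All DMSO points lie below the dashed line, at C1ra to C1s1 ratios of 3.38 to 9.16, and trametinib points lie nearer to it, at 1.01 to 2.41.

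The other protein-coding genes within 100000 bases of C1ra were also looked at, a choice made after values had been seen. C1rl, which encodes a C1r-like protease and begins upstream of C1ra, rose by a log2 fold change of 2.08 (SE 0.29, limma adjusted p = 0.0015). Pex5, a peroxisomal import receptor gene, rose by 0.51 (adjusted p = 0.0028). Clstn3 (1.87, adjusted p = 0.017) passed the filter only through its trametinib values, with a DMSO mean of 5.31. C1rb, the close copy of C1ra, was below the filter and listed at 0 in 7 of 8 libraries.

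C3, the central component whose cleavage products opsonize targets and recruit leukocytes, rose in all 4 lines without overlap between groups. DMSO values were 34.4, 8.09, 48.0 and 59.0 in lines #1, #3, #5 and #10, the lowest of them about 8 reads. With trametinib they were 285, 85.9, 442 and 145. Line #3 was lowest under both treatments. The log2 fold changes were 3.01, 3.26, 3.18 and 1.28 by line, so that line #10, highest with DMSO, rose the least. The fitted change was 2.68 (SE 0.37, 95% CI 1.81 to 3.55, limma adjusted p = 0.0014), from 37.4 ± 22.0 (SD, n = 4) to 239.5 ± 159.

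Of the 7 tested genes, 2 (C3 and C1s1) had all trametinib values above all DMSO values, a pattern present in 15.1% of all genes tested. C3 lies at chr17:57203970-57228136 on the minus strand.

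Cfb encodes factor B, the protease subunit of the alternative pathway's C3-cleaving enzyme, and did not pass the test although it was higher with trametinib in 4 of 4 lines. Its values were 824, 1229.8, 992 and 2128 with DMSO and 897, 2159, 1089 and 2299 with trametinib. Line #3 rose by 0.81 on the log2 scale and the other lines by 0.11 to 0.13. The fitted change was 0.29 (SE 0.14, 95% CI -0.04 to 0.63, limma adjusted p = 0.12), so an increase of up to 0.63 lies within its interval. When libraries were rescaled to equal totals, Cfb passed at 0.42 (adjusted p = 0.041). Without line #3 the change was 0.12. Cfb lies at chr17:34856374-34862518 on the minus strand, near C4b at chr17:34728380-34743882 on the same strand.

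C4b, the C4 gene whose product is cleaved by C1s, was near the floor. Its values were 16.04, 15.8, 0 and 1.08 with DMSO and 7.72, 17.7, 1.35 and 3.79 with trametinib in lines #1, #3, #5 and #10. These correspond to about 21, 15, 0 and 1 reads and 8, 19, 2 and 4 reads. A total of 3 libraries lay at or under 3 reads, and lines #1 and #3 held most of the C4b reads under both treatments. No change between treatments was detectable at this depth (limma adjusted p = 0.62 when no filter was applied).

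Serping1 encodes C1 inhibitor, the serum protein that inactivates C1r and C1s. The gene (chr2:84765387-84775444, minus strand) was listed at 0 in all 4 DMSO libraries, which allows up to 2.33, 3.12, 3.72 and 2.88 normalized counts in lines #1, #3, #5 and #10. With trametinib it was 1.85, 8.32, 5.51 and 2.74, or about 2, 9, 7 and 3 reads. Only lines #3 and #5 exceeded 3 reads (floors of 2.81 and 2.40). Without the filter the limma adjusted p was 0.0072, but no fold is given against a group listed at 0.

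Cd55 (chr1:130439027-130462744, minus strand) encodes decay-accelerating factor, a membrane protein that dissociates C3-cleaving enzymes on host cells. Its values were 223, 843, 411 and 487 with DMSO and 574, 2159, 466 and 1123 with trametinib. It was higher in every line, clearly so in lines #1, #3 and #10 (log2 fold changes 1.36, 1.36 and 1.20) and by 0.18 in line #5. The fitted change was 1.02 (SE 0.21, 95% CI 0.52 to 1.53, limma adjusted p = 0.0069), from 491 ± 259 (SD, n = 4) to 1081 ± 774. The groups overlapped, with DMSO lines #3 and #10 (843 and 487) above trametinib-treated line #5 (466). Without pairing libraries by line the limma adjusted p was 0.18.

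Cd59a (chr2:104095801-104115354, plus strand) encodes the membrane inhibitor of the lytic pore, and its increase was far from even. Its values were 10.6, 60.7, 26.5 and 7.51 with DMSO (about 14, 58, 21 and 8 reads) and 20.8, 3417, 93.4 and 39.6 with trametinib in lines #1, #3, #5 and #10. All lines were higher with trametinib, but line #3 stood apart at a log2 fold change of 5.79, against 0.91, 1.78 and 2.25 in the others. The fitted change was 2.68 (SE 0.75, 95% CI 0.90 to 4.46, limma adjusted p = 0.022), and without line #3 it was 1.65 (adjusted p = 0.013). The mean rose from 26.4 ± 24.4 (SD, n = 4) to 893 ± 1683. The call was lost without the line block (adjusted p = 0.20), without the mean-variance trend (0.053), and when Cd59a was summed with its copy Cd59b (log2 fold change 1.36, adjusted p = 0.21).

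Clu (chr14:65968483-65981547, plus strand) encodes clusterin, a secreted chaperone that binds terminal complement components, and had the highest level per kb of exon of the 9 genes in every library. DMSO values were 172637, 138747, 140362 and 96763 in lines #1, #3, #5 and #10, and trametinib values were 112584, 254366, 94489 and 83823. Clu took 0.265 to 0.83% of all normalized counts of a library. It was higher with trametinib in line #3 (log2 fold change 0.87) and lower in lines #1, #5 and #10 (-0.62, -0.57 and -0.21). No change passed the test over the 4 lines (-0.13, SE 0.26, 95% CI -0.75 to 0.49, limma adjusted p = 0.70), whereas without line #3 Clu fell by 0.46 on the log2 scale (adjusted p = 0.013). Leaving out line #1 or line #5 gave 0.032 and 0.017, of opposite sign.

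**Figure D3:**
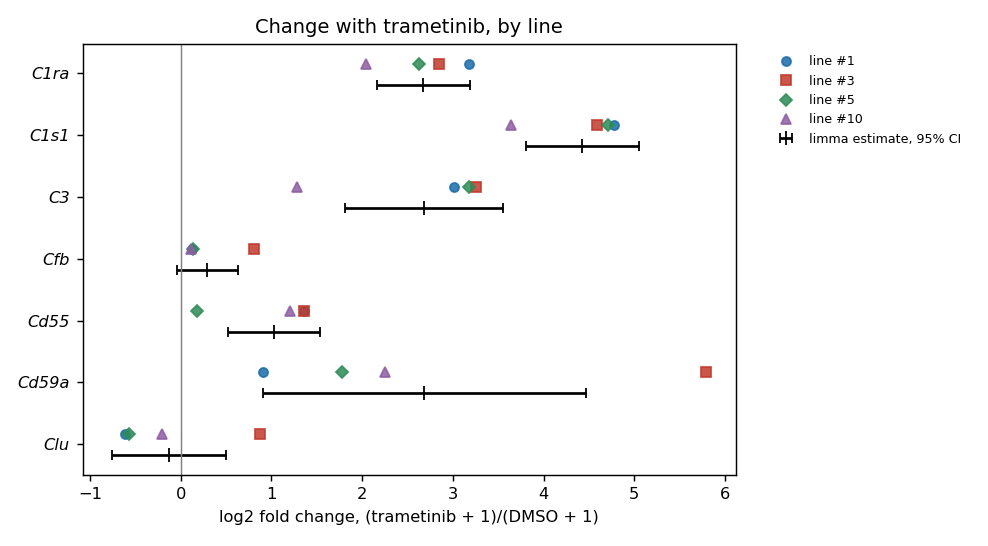
Log2 fold change, (trametinib + 1)/(DMSO + 1), of the 7 complement genes that passed the filter; symbols are the 4 cell lines and the black bars the limma estimate with its 95% confidence interval. C1s1 has the largest estimate at 4.43, the intervals of Cfb and Clu include 0, and line #3 lies apart for Cd59a at 5.79.

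The trametinib library of line #3 held the highest Cd59a and Clu values, and it also had the lowest summed epithelial markers of the 8 libraries (113439). Its 10 highest genes took 9.003% of its total, against 5.01 to 6.77% in the other libraries. The part of these features in the Cd59a, Clu and Cfb values of line #3 was not tested.

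Levels differed between the lines for most complement genes. An F test of the line terms in the same limma fit, over DMSO and trametinib libraries together, passed for 6 of the 7 genes (C1ra, C1s1, C3, Cfb, Cd55 and Cd59a, adjusted p = 0.0051 to 0.047) and for 27.6% of all genes tested. It did not pass for Clu (adjusted p = 0.19). C1ra and C1s1 were highest in line #10 and lowest in lines #1 or #3, Cd55 and Cd59a were highest in line #3, and Cfb was lowest in line #1. Line #10 also had the highest DMSO value of C3 and the smallest log2 increase of C1ra, C1s1 and C3 (2.04, 3.64 and 1.28). A log2 fold change contains the DMSO value, so these orders are not independent. Whether the change of a gene differed between lines was not tested, since a line and treatment had 1 library. With the fit without a mean-variance trend, 2 genes differed between lines, where the count over all genes also fell from 4391 to 1879 of 15888, and 2 to 4 did when 1 line was left out.

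Levels were compared between genes only per kb of exon. With DMSO, Clu stood at 28154 to 50229 normalized counts per kb, Cfb at 292 to 753 and Cd55 at 46.0 to 174, and these ranges did not overlap. Below them came C1ra at 6.25 to 81.7, Cd59a at 4.15 to 33.5, C3 at 1.57 to 11.5, C1s1 at 1.85 to 17.3, C4b at 0 to 2.82 and Serping1 at 0, where C1ra overlapped Cd55 and each further neighbour down to C4b overlapped the next. With trametinib, C1ra stood at 59.4 to 338, C1s1 at 57.1 to 219 and C3 at 16.7 to 86.0 per kb, overlapping the range of Cd55 of 96.1 to 445 for C1ra and C1s1. Clu stayed separate at 24389 to 74008, whereas Cfb at 318 to 814 overlapped Cd55 and C1ra. Cd59a spanned 11.5 to 1887 per kb, with line #3 at the top. C4b reached at most 3.11 and Serping1 at most 3.58 per kb.

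Several of these genes have close copies, and the share of their transcript sequence that is unique bears on how reads were assigned. No 31-base word of C3, Serping1 or Clu occurred in transcripts of another gene. Shared words made up 75.5% for Cfb (with the overlapping gene model Gm20547), 59.6% for C1ra (mainly C1rb), 48.3% for C4b (C4a), 47.6% for C1s1 (C1s2 and Gm16567), 13.0% for Cd55 (mainly Cd55b) and 9.39% for Cd59a (mainly Cd59b). Values of genes with large shared parts are uncertain where reads were split between copies. Gm20547 was listed at 0 in 7 libraries and at 12.3 in trametinib-treated line #10, C1s2 averaged 4.10 and Cd55b 0.388. Summing each gene with its copy, a choice made after the data were seen, gave log2 fold changes of 2.68 for C1ra and 4.25 for C1s1. C4b with C4a fell by 0.72 (SE 0.22, limma adjusted p = 0.032), and C4a supplied most of that sum at 19.1 to 105 normalized counts.

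A wider list held 46 other complement genes, of which 39 had values, 24 of these were below the filter and 15 were tested. Among the 7 without values were C1qa, C1qb and C1qc, the genes of the C1q recognition unit, so C1q levels are not known here. The wider list was drawn up with earlier results of these data known, and its counts are a description. Of the 15, 9 rose, 3 fell and 3 did not pass the test, beside 27.3% higher and 25.6% lower among all genes tested, with a median log2 fold change of 1.23 against 0.072 for all genes tested.

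Fluid-phase and membrane regulators were among those that rose. Cfi, which encodes the protease factor I that cleaves C3b and C4b, rose by 3.14 (SE 0.38, limma adjusted p = 0.0010), from 35.7 ± 26.3 (SD, n = 4) to 319 ± 180.2. Among genes of cofactors for factor I, C4bp rose by 2.04 (SE 0.17, adjusted p = 0.00035) and Cd46 by 1.29 (SE 0.23, adjusted p = 0.0040), whereas Cr1l had -0.095 and did not pass (SE 0.085, adjusted p = 0.38). Cfp, encoding properdin, which stabilizes the alternative pathway enzyme, rose by 1.13 (SE 0.18, adjusted p = 0.0023). Cpn1, encoding the carboxypeptidase that trims anaphylatoxins, rose by 1.23 (SE 0.40, adjusted p = 0.038).

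Masp1, a protease gene of the lectin pathway, rose by 2.40 (SE 0.43, limma adjusted p = 0.0036). The genes of terminal components C9 and C8g rose by 1.70 (SE 0.47, adjusted p = 0.020) and 1.32 (SE 0.31, adjusted p = 0.011). C9 was listed at 0 in 2 DMSO libraries, and its log2 fold change ran from 1.10 with a pseudocount of 5 to 3.02 with a pseudocount of 0.1, so its size is uncertain. C2, the classical partner of C4 and the neighbour of Cfb, had -0.41 and did not pass (SE 0.42, adjusted p = 0.44). C3ar1, the receptor gene for the C3 fragment C3a, fell in 4 of 4 lines, from 218 ± 73.0 (SD, n = 4) to 28.2 ± 11.8 (log2 fold change -2.94, SE 0.20, adjusted p = 0.00022). C1qbp, whose product is mainly mitochondrial and also binds C1q, had -1.20 (SE 0.13, adjusted p = 0.00065), from 9479 ± 647 to 4186 ± 746. C4a had -0.84 (SE 0.26, adjusted p = 0.033) and Cd59b had -0.89 without passing (adjusted p = 0.058). The calls of Cpn1, C4a, C9, C8g and C4bp were lost in 8, 7, 5, 2 and 1 of the alternative fits.

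**Figure D4:**
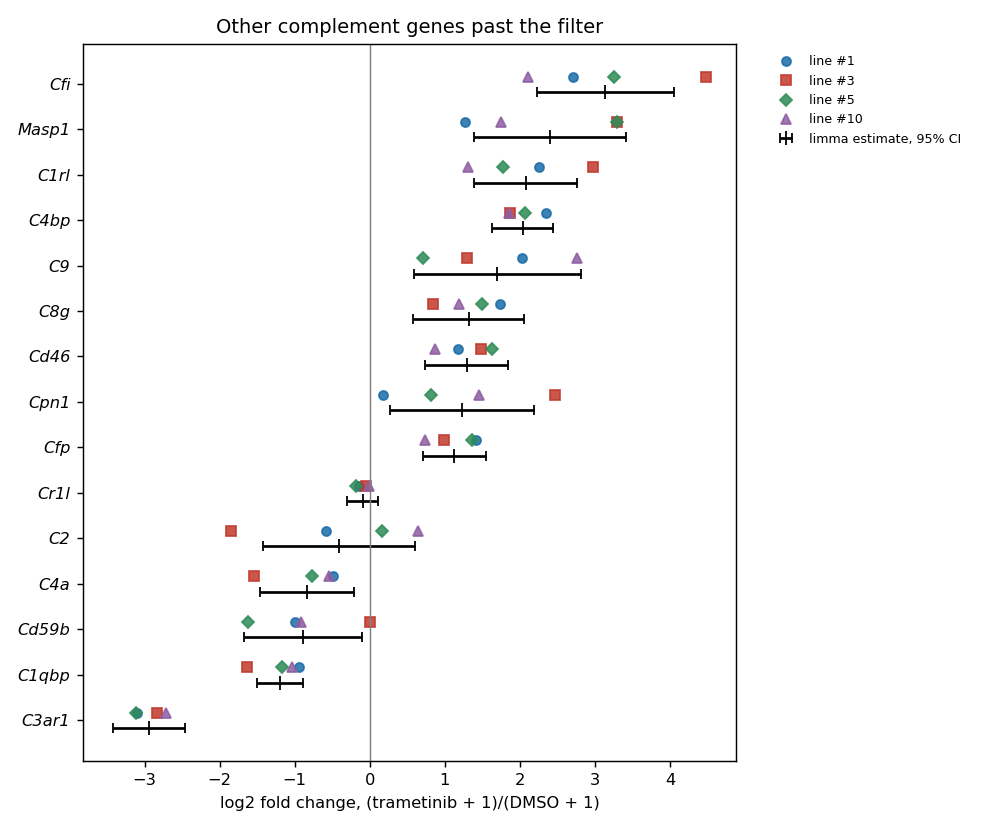
Log2 fold change, (trametinib + 1)/(DMSO + 1), of the 15 other complement genes past the filter; symbols are the 4 cell lines and black bars the limma estimate with its 95% confidence interval. Estimates run from 3.14 for Cfi down to -2.94 for C3ar1, and in C3ar1 and C1qbp all 4 lines lie below 0.

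Across the 8 libraries, Pearson's r between log2 values was 0.94 for C1ra and C1s1, 0.87 for C3 and C1s1, 0.80 for Cd55 and Cd59a, 0.72 for Cfb and Cd55 and 0.68 for C3 and C1ra. It was 0.025 for C3 and Cfb and 0.051 for C3 and Cd55, and the lowest of the 21 pairs was -0.43, for Clu with C1s1. These are descriptions over 8 libraries that share lines and the treatment difference. Among all genes tested, those most like C3 were Gm4262, Dzip1l and Lrrc49 (each r = 0.98), with 54 genes above 0.95. Those most like C1s1 were Cxxc4, Rnf135 and Loxl2 (each r = 0.99), with 46 genes above 0.95. For Clu they were Cxadr (r = 0.98), Gopc and Adcy3 (each r = 0.96), with 6 genes above 0.95.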

How the data were processed

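PolyA RNA of 4 murine PDAC lines with DMSO or trametinib was sequenced from stranded libraries (1 library per line and treatment). The authors deposited normalized counts, a signal per gene scaled between libraries. The submitters' processing notes list CASAVA 2.17, Salmon 0.12, DESeq2 1.18 and mm10 without stating their roles. Whole reads could not be recovered, so no count test was run, and approximate reads were taken from the step between low values (29300000 to 45900000 reads per library).

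Values were tested as log2(value + 1) with limma 3.58.1 (R 4.3.3), with the cell line as a block, a mean-variance trend, a filter at a mean of 10 (15888 genes) and Benjamini-Hochberg adjustment at 0.05. Fold changes on this scale understate those of low genes. The labels give both libraries of a line the same number, and their deviations from group means correlated at 0.63 to 0.72. On simulated data, 199 of 200 changed genes were recovered with 9 false calls among 15801 genes. That simulation gave all genes the same added noise and each changed gene an equal shift in every line. In the data, changes differ between lines and far more genes are called. The simulated counts are therefore not error rates of the calls given here. In all, 14 alternative fits were planned and 1 was added. The 9 genes were named, as were other complement genes past the threshold, near-identical copies and, for 3 of the 9, the 3 genes most like each. A further complement gene is not reported here. The members and lists were chosen with earlier results of these data known. Positions are from GENCODE M21 (GRCm38), and promoters from RefSeq (GRCm38.p6).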

Additional observations from a re-analysis of the deposited data

Results flagged for a closer look

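In 26 groups of 4 values (levels by treatment and log2 fold changes by line of the complement genes), 6 held a value far from the other 3 by Dixon's 95% criterion. For independent groups of normally distributed values, 1 in 20 would give about 1.3. These groups are not independent, since fold changes are computed from the same levels, and levels are skewed. The flags are therefore a description and not a test against chance. For log2 fold changes these were line #10 for C3 (1.28) and C1s1 (3.64), line #3 for Cfb (0.81) and line #5 for Cd55 (0.18). For trametinib levels they were line #3 for Cd59a (3417 normalized counts) and for Clu (254400, rounded). Clu also changed in opposite directions, by 0.87 on the log2 scale in line #3 and by -0.62 in line #1, each over 1.5-fold. That difference between lines was not tested, since each line had 1 library per treatment.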

How the results depend on the processing

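C3, C1ra and C1s1 kept their calls in all 15 alternative fits, with log2 fold changes of 2.24 to 3.15, 2.43 to 2.88 and 4.04 to 4.69. Without the replicate block, which ignores the pairing of libraries by line, 3 complement genes rose instead of 5 (Cd55 and Cd59a were lost at adjusted p of 0.18 and 0.20), and 5 instead of 9 of the wider complement list, while over all genes 2205 instead of 4341 of 15888 rose. Leaving out 1 line at a time, 5 complement genes rose each time, 0 to 1 fell and 2 to 4 differed between lines (2 without line #1), and 7 to 8 of the wider list rose and 2 to 5 fell. Over all genes 3383 to 4195 rose in these fits and 2028 to 4558 differed between lines (2028 without line #1, against 4391). It was without line #3 that 1 complement gene (Clu) and 5 of the wider list fell. Over all genes 4007 of 15712 fell in that fit, against 4075 of 15888 in the main fit. The fits that left out 1 line had 3302 to 4007 genes lower. For Clu, leaving out 1 line gave log2 fold changes from -0.46 (without line #3) to 0.032 (without line #1), with a change of sign also without line #5 (0.017). Without the mean-variance trend 2 genes differed between lines instead of 6. Summing genes with their copies, added after the data were seen, gave 1 fall (C4b with C4a), beside 4076 of 15889 over all genes. The causes were not tested. The median log2 fold change of all genes was 0.072, 0.20 with equal totals and -0.032 with quantile normalization. With equal totals 5315 of 15888 genes rose and 3284 fell, against 4341 and 4075 in the main fit. Depth limits C4b, Serping1 and the DMSO values of C1s1 (lines #1 and #3), C3 (line #3) and Cd59a (lines #1 and #10).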

Other observations

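Genes of the acute-phase response, which the liver secretes together with complement in inflammation, were also measured. Of 18 listed genes 10 were tested, 7 rose, 0 fell and 3 did not pass, against 27.3% higher and 25.6% lower over all genes tested. These counts are not of secreted proteins alone. The 7 include the transcription factor genes Stat3 and Cebpd, and Cebpb is among the 3 that did not pass. The list was drawn up with earlier results of these data known. Cp, encoding the copper carrier ceruloplasmin, rose by 5.28 on the log2 scale (SE 0.34, limma adjusted p = 0.0002), from 337 ± 219 (SD, n = 4) to 11152 ± 2308 normalized counts. Lbp, encoding lipopolysaccharide-binding protein, rose by 3.11 (SE 0.20, adjusted p = 0.0002), and Hpx, encoding hemopexin, by 1.91 (SE 0.24, adjusted p = 0.0011). Hp, the haptoglobin gene, rose by 2.45 (SE 0.39, adjusted p = 0.0024). Lcn2 rose by 2.35 (SE 0.72, adjusted p = 0.031), with line #10 moving by 0.20. Hp, Lcn2 and Orm1 passed the filter only through their trametinib values (DMSO means 2.76, 4.19 and 1.42), so they had to differ to be tested. The count of 7 that rose includes Hp and Lcn2, and Orm1 is among the 3 that did not pass. Among transcription factor genes on the list, Stat3 rose by 1.12 (SE 0.11, adjusted p = 0.00049) and Cebpd by 1.14 (SE 0.34, adjusted p = 0.027), the latter higher in 3 of 4 lines, while Cebpb had 0.27 (adjusted p = 0.10). Saa3 had -0.24 (adjusted p = 0.66), and Saa2 and A2m were listed at 0 in all 8 libraries.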
